A study of Arabidopsis thaliana with 63 samples.

Results

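The transcripts of 10 genes of the anthocyanin and flavonoid pathway were followed through the RNA-seq of *Arabidopsis thaliana* seedlings: 7 enzymes (CHS, CHI, F3H, F3'H, DFR, LDOX and UF3GT) and 3 transcriptional regulators (PAP1, PAP2 and TT8). They were taken by gene identifier from the 29961 genes and transposable elements (TEs) of each deposited table, and all 10 were found in both tables. The series compares Col-0 wild type (WT) with mutants that lack H2A.W, the histone H2A variant of heterochromatin, and its RNA-seq holds 3 libraries per genotype, 9 in all. All seedlings were 10 days old, untreated, and grown with 16 h of light at 23 °C. The libraries labelled h2a.w-2 come from a triple mutant that joins hta6-2, a frame-shift allele made with CRISPR-Cas9, to the hta7 and hta12 insertion alleles. The h2a.w-1 libraries come from the older triple mutant, which carries the T-DNA insertion allele hta6-1 with hta7 and hta12. The study's methods report that hta6-1 also carries a translocation of part of chromosome 1, so h2a.w-1 differs from WT by more than H2A.W. Each mutant stands for a single combination of alleles, and no source used here says whether the libraries came from separate sowings, so p-values measure only the spread between these libraries.

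Flavonoids are made from p-coumaroyl-CoA, the end product of the general phenylpropanoid pathway. Chalcone synthase (CHS) and chalcone isomerase (CHI) build the flavonoid skeleton, and the hydroxylases F3H and F3'H convert it to dihydroflavonols, the branch point between colourless flavonols and red to purple anthocyanins. Dihydroflavonol reductase (DFR), leucoanthocyanidin dioxygenase (LDOX) and the glycosyltransferase UF3GT then act on the anthocyanin side. In Arabidopsis the early enzymes are switched on by flavonol-specific MYB factors, whereas the late enzymes need a MYB-bHLH-WD40 complex, in which the MYB proteins PAP1 and PAP2, the bHLH protein TT8 and the WD40 protein TTG1 take part. Seedlings are known to accumulate anthocyanin under strong light, sugar supply, nutrient shortage or cold.

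The deposited values are means over the 3 libraries of a genotype, from which the whole reads of each library were recovered for 29881 features (99.7%). Their columns carry no replicate numbers, so letters were given within each genotype from A (largest size factor) to C (smallest), and no library was paired with a library of another genotype. The recovered reads ranged from 5812579 to 9391308 per library, and library C was the shallowest in each genotype, with 5812579 in h2a.w-2, 6800695 in h2a.w-1 and 6317597 in WT. A normalized count is a number of reads divided by a size factor that evens out depth over the 9 libraries. HTA6, HTA7 and HTA12, the H2A.W genes, were lower in h2a.w-1 than in WT by the test used here, and HTA6 and HTA7 were also lower in h2a.w-2. The HTA6 call in h2a.w-2 was lost without any of WT libraries A, B or C or h2a.w-2 library B (adjusted p 0.0634 to 0.120, limma). For HTA12, the h2a.w-2 libraries (A to C) gave 28, 107 and 17 reads, against 97, 113 and 86 reads in WT, so h2a.w-2 library B goes against its label in this gene. Its HTA7 (78 reads) and HTA6 (274 reads) went with the label, beside 532 to 795 and 751 to 949 reads in WT. Results were also computed without h2a.w-2 library B.

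The seedling label was checked with tissue markers. The authors' means of the leaf genes RBCS1A, LHCB1.1, LHCB2.1, LHCB3, PSBO1, CA1 and RCA stood at 0.679 to 1.19 times WT in h2a.w-2 (6 of 7 below WT) and at 1.40 to 2.41 times WT in h2a.w-1 (7 of 7 above). The summed normalized counts of the 7 root markers with library values (of 8) ranged from 596 to 978 in h2a.w-2, from 507 to 899 in h2a.w-1 and from 824 to 1803 in WT. The 4 seed storage markers summed to 1.90 to 8.58 in h2a.w-2, 18.0 to 303 in h2a.w-1 and 0 to 2.56 in WT, with SESA1 and OLEO1 at 0 reads in h2a.w-2 and WT. Their part in the values below was not tested.

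Each of the 10 genes is protein-coding, and none shares a stretch of 75 bases, the read length, exactly with another place in the nuclear genome. In the RefSeq annotation of TAIR10.1, the genes read from the plus strand are CHS (AT5G13930) at chr5:4488476-4490264, F3H (AT3G51240) at chr3:19025192-19026872, F3'H (AT5G07990) at chr5:2560328-2563137, PAP2 (AT1G66390, MYB90 in RefSeq) at chr1:24763941-24765541 and TT8 (AT4G09820) at chr4:6181881-6186523. Those read from the minus strand are CHI (AT3G55120) at chr3:20430059-20431597, DFR (AT5G42800) at chr5:17164093-17166032, LDOX (AT4G22880) at chr4:12004726-12006209, UF3GT (AT5G54060) at chr5:21936746-21938396 and PAP1 (AT1G56650) at chr1:21233555-21235292. The genes have between 1 exon (UF3GT) and 7 exons (TT8). F3H shares 1588 bases with the antisense lncRNA gene AT3G51238, which had 0 to 3 reads in every library, and since the strand setting of the counting is not given in the sources used here, reads of this pair cannot be told apart with certainty.

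The 250 bases before the annotated start are shown for the 3 late enzymes, whose levels varied together most widely, and for the early enzymes CHS and F3H. Capitals mark CACGTG, the G-box that bHLH proteins can bind, and ACCAAC and ACCTAC, the AC elements that MYB proteins can bind, each searched on both strands. The stretches, all 5′ to 3′ along the gene in TAIR10.1, are chr5:17166033-17166282 (minus strand) for DFR, chr5:21938397-21938646 (minus strand) for UF3GT, chr4:12006210-12006459 (minus strand) for LDOX, chr5:4488226-4488475 (plus strand) for CHS and chr3:19024942-19025191 (plus strand) for F3H.
DFR: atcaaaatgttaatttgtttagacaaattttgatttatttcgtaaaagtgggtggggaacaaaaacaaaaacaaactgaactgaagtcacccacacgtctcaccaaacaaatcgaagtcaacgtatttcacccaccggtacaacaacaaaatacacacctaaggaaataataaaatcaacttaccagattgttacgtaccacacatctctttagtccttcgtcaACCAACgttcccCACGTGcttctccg
UF3GT: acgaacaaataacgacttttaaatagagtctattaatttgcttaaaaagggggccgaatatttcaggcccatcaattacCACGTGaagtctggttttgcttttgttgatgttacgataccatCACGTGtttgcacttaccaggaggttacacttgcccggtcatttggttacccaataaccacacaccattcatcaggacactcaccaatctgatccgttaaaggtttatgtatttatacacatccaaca
LDOX: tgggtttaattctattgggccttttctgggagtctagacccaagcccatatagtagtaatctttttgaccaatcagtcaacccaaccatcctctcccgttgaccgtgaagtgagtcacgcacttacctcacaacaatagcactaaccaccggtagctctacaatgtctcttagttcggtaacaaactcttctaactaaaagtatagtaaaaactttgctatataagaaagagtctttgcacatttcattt
CHS: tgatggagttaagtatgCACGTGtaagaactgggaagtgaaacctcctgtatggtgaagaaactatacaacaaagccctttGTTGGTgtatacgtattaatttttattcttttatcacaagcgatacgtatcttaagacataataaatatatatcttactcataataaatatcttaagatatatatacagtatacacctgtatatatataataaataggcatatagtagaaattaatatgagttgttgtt
F3H: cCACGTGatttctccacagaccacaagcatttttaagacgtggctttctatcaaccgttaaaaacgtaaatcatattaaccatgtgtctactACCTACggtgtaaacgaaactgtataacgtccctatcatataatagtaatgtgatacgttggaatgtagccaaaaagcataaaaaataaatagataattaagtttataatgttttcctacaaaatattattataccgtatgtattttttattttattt
The G-box stood in 5 of the 10 windows (CHS, F3H, DFR, UF3GT and PAP2), and in 7.09% of 23797 windows of the same length before protein-coding genes. ACCAAC stood in the windows of CHS, DFR and TT8 and in 11.6% of all windows, and ACCTAC in the window of F3H and in 4.61% of all windows. The wider E-box CANNTG, which includes every G-box, stood in 8 of the 10 windows and in 56.1% of all. In DFR the G-box and ACCAAC began 14 and 26 bases before the annotated start. LDOX, whose level went with that of DFR (below), held none of these letters in its window. These are matches of letters only.

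CHS was the most abundant of the 10 genes, and the 4 early enzymes differed less between libraries of a genotype than the late enzymes. CHS, which makes the first flavonoid, had normalized counts of 491, 600.0 and 190.1 in h2a.w-2 (A, B, C in turn), 574, 702 and 1015 in h2a.w-1, and 2519.7, 510.2 and 1052 in WT. WT library A stood alone at the top, and the other WT libraries lay just below and just above the range of h2a.w-1. CHS averaged 427 ± 212 in h2a.w-2, 764 ± 227 in h2a.w-1 and 1361 ± 1039.7 in WT (SD, n = 3 each). The log2 fold change of CHS was -1.49 ± 0.60 (SE) for h2a.w-2 against WT (adjusted p = 0.420, limma voom) and -0.57 ± 0.50 for h2a.w-1 against WT (adjusted p = 0.464).

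CHI, which closes the central ring of the skeleton, had normalized counts of 106, 107 and 70.0 in h2a.w-2, 146, 144 and 138 in h2a.w-1, and 298, 93.8 and 147 in WT. The h2a.w-2 libraries lay below all 3 h2a.w-1 libraries, but WT overlapped both mutants. F3H, which makes dihydrokaempferol, had 117, 115 and 70.0 in h2a.w-2, 155, 277 and 248 in h2a.w-1, and 372, 99.8 and 268 in WT. Again h2a.w-2 lay below h2a.w-1 without overlap, and WT library B fell among the h2a.w-2 libraries. F3'H, which adds the hydroxyl group that leads to quercetin and cyanidin, had 95.0, 113 and 62.9 in h2a.w-2, 58.3, 73.2 and 113 in h2a.w-1, and 215, 65.7 and 105 in WT. Its genotypes overlapped in every pair, with WT library A the highest of the 9. In WT, all 4 early enzymes followed the order A, C, B, with 3.18-fold (CHI) to 4.94-fold (CHS) between the highest and the lowest library.

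**Figure D1:**
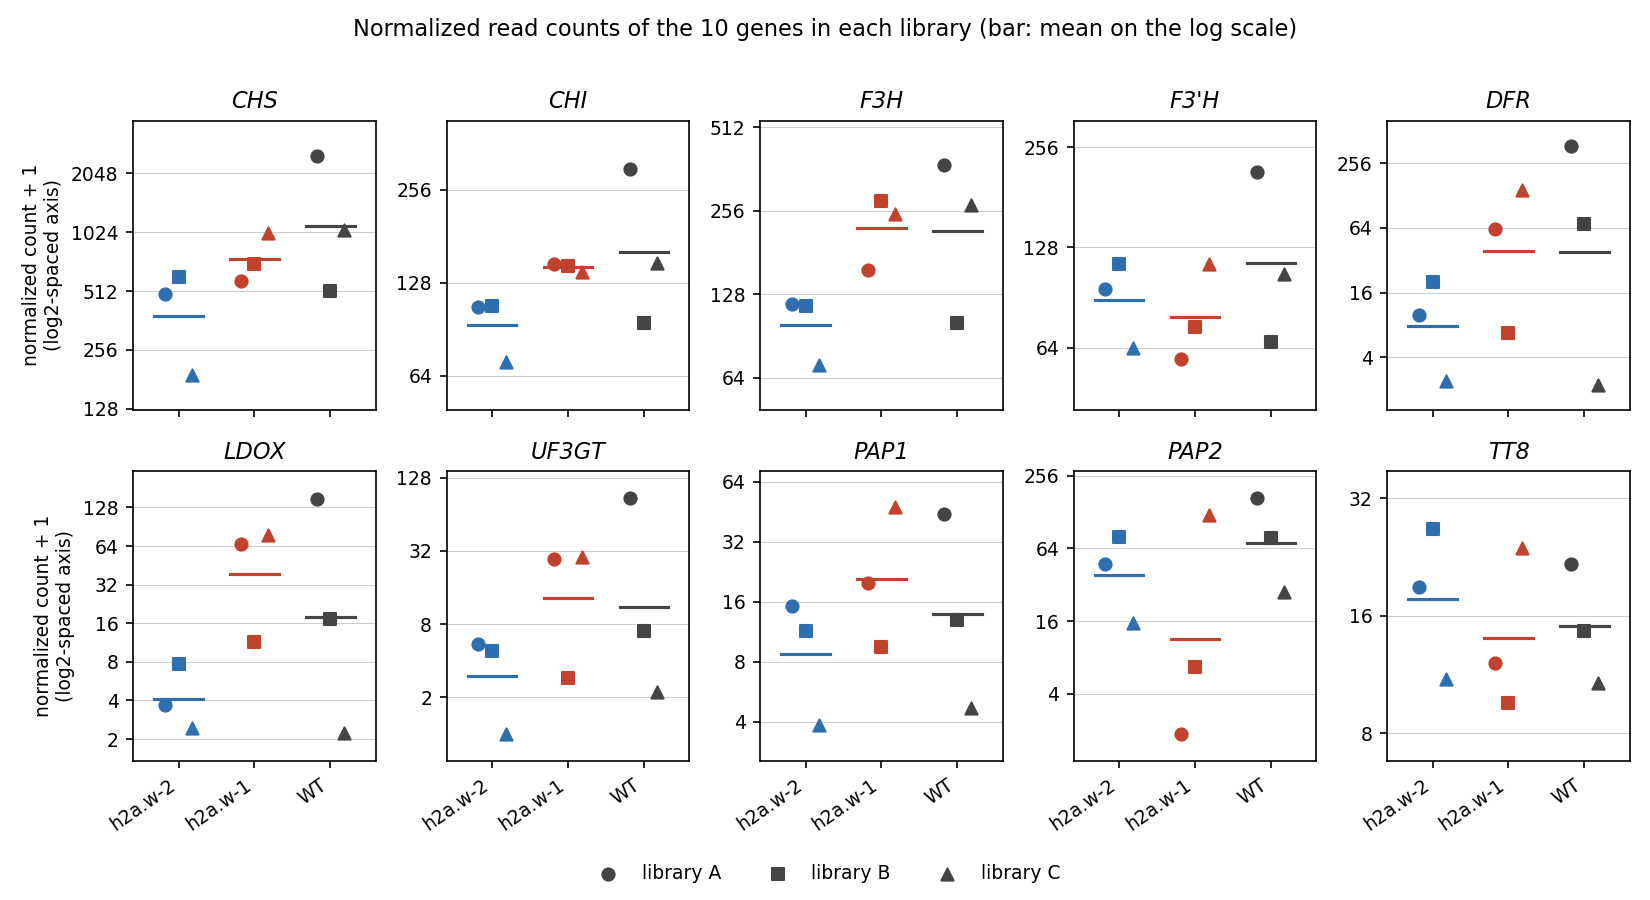
Normalized read count plus 1 (log2-spaced vertical axis) of each gene in every library, with the genotype on the horizontal axis, marker shapes for libraries A, B and C, and a bar at the mean on the log scale. WT library A was the highest of the 9 libraries for CHS, CHI, F3H, F3'H, DFR, LDOX, UF3GT and PAP2, and in DFR the WT libraries alone span 369.7 to 1.22.

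The late enzymes were nearly silent in some libraries and strongly transcribed in others of the same genotype. DFR, the first enzyme committed to anthocyanins, had normalized counts of 8.96, 19.0 and 1.43 in h2a.w-2, 60.9, 5.70 and 143 in h2a.w-1, and 369.7, 68.2 and 1.22 in WT. The WT value of library C rests on 1 read and that of library A on 445 reads, a 302-fold difference with a counting interval (95%, exact binomial) of 53.9 to 11950.1. WT library A was the highest of the 9, while WT library C and h2a.w-2 library C, with 1 read each, cannot be ranked. Such intervals cover counting error only, as the reads carry no molecular identifiers.

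LDOX, which turns leucoanthocyanidins into anthocyanidins, had normalized counts of 2.69, 6.67 and 1.43 in h2a.w-2, 65.2, 10.5 and 77.6 in h2a.w-1, and 148, 16.2 and 1.22 in WT. All h2a.w-2 libraries were below all h2a.w-1 libraries, and the C libraries of h2a.w-2 and WT had 1 read each. UF3GT, which attaches a xylose to anthocyanins, had 5, 4 and 0 reads in h2a.w-2, 31, 2 and 24 reads in h2a.w-1, and 103, 7 and 1 reads in WT. The 0 in h2a.w-2 library C allows a normalized count of up to 4.29, close to the 4.48 and 3.81 of the other h2a.w-2 libraries. WT library A held 54.5% of the summed normalized counts of DFR over the 9 libraries, 44.9% of those of LDOX and 54.5% of those of UF3GT.

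Most SDs of the late enzymes came close to their means or exceeded them. DFR averaged 9.81 ± 8.84 in h2a.w-2, 69.8 ± 68.9 in h2a.w-1 and 146 ± 196 in WT (SD, n = 3 each). LDOX averaged 3.59 ± 2.73 in h2a.w-2, 51.1 ± 35.7 in h2a.w-1 and 55.1 ± 80.7 in WT. UF3GT averaged 2.76 ± 2.42, 18.6 ± 14.5 and 30.9 ± 47.4 in h2a.w-2, h2a.w-1 and WT. For h2a.w-2 against WT, the ratios of these means were 0.067 for DFR, 0.0652 for LDOX and 0.0894 for UF3GT, yet none of the log2 fold changes (-2.59 ± 2.43, -2.44 ± 1.88 and -2.24 ± 1.68, SE) came near the threshold, with adjusted p-values from 0.566 to 0.646 (limma voom). The 95% interval of the DFR change reached from -8.21 to 3.03 on the log2 scale, so it holds both a large loss and a gain. The values depended on single WT libraries: the log2 fold change was -0.80 without WT library A and -4.29 without WT library C for DFR, -0.75 and -3.78 for LDOX, and -0.58 and -3.27 for UF3GT. For h2a.w-1 against WT, LDOX had a log2 fold change of 0.86 ± 1.36 although its mean count was 0.927 times that of WT. The test averages log values, and WT library C lies at 1 read.

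The regulators had fewer reads, and their order over the libraries resembled that of the late enzymes only in part. PAP1, a MYB activator of the late enzymes, had normalized counts of 14.3, 10.5 and 2.86 in h2a.w-2, 18.9, 8.55 and 46.8 in h2a.w-1, and 43.2, 11.9 and 3.67 in WT. As for DFR, h2a.w-1 library C and WT library A were the highest, and the C libraries of h2a.w-2 and WT the lowest. PAP2, its close paralog, had 52, 83 and 10 reads in h2a.w-2, 1, 6 and 104 reads in h2a.w-1, and 199, 90 and 22 reads in WT. Here h2a.w-1 libraries A and B were the lowest of the 9, and the ratio of h2a.w-1 library C to library A was 138 with a counting interval of 24.3 to 5522.4. TT8, the bHLH partner, varied least among the regulators, with 17.9, 25.7 and 10.0 in h2a.w-2, 11.1, 8.55 and 22.8 in h2a.w-1, and 20.8, 13.6 and 9.80 in WT. For h2a.w-1 against WT, PAP2 had the lowest log2 fold change of the 10 genes, -3.24 ± 1.42 (SE, 95% interval -6.50 to 0.03, adjusted p = 0.154, limma voom), while h2a.w-1 library C lay above 2 of the 3 WT libraries. That value was -1.69 without h2a.w-1 library A and -4.84 without h2a.w-1 library C.

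Per kilobase of exon, which allows comparison between genes, the mean normalized counts in WT were 799 for CHS, 164 for F3H, 162 for CHI, 96.3 for DFR, 89.5 for PAP2, 66.7 for F3'H, 39.4 for LDOX, 18.7 for UF3GT, 17.7 for PAP1 and 7.35 for TT8. In h2a.w-2, DFR had 6.46, LDOX 2.57 and UF3GT 1.67 per kilobase, below PAP2 at 46.6. In h2a.w-1, DFR stood at 45.9 and PAP2 at 41.7 per kilobase. CHS was the highest per kilobase in all 3 genotypes, at 251 in h2a.w-2 and 449 in h2a.w-1.

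None of the 10 genes was called in either mutant against WT. A call needed an adjusted p under 0.05 with a log2 fold change above 1 or under -1, and all 10 genes reached the required mean of 10 normalized counts in every comparison. DFR, LDOX, UF3GT and PAP1 averaged under 10 in h2a.w-2 and reached it through the other genotype, so no support is drawn from their passing. In h2a.w-2 against WT, 0 of 10 genes were called by limma voom, beside 0.0408% of all features (8 of 19628, 0.0255% higher and 0.0153% lower). CHS alone had an unadjusted p under 0.05 in limma voom, beside 11.6% of all features. Below 0 were 9 log2 fold changes (TT8 was above), and the median over the 10 genes was -0.96, beside 0.00 over all features tested. In h2a.w-1 against WT, 0 of 10 were called, beside 4.86% of all features (957 of 19681, 1.66% higher and 3.2% lower), and none had an unadjusted p under 0.05, beside 33.2%. Below 0 were 6 log2 fold changes and above 0 were 4, with a median of -0.19, beside -0.01 over all features. No gene was separated from WT in all 3 libraries of a mutant. In h2a.w-2 against WT, groups did not overlap for 10.3% of all features with the mutant higher and for 10.3% with the mutant lower, and in h2a.w-1 against WT for 20.3% and 18.5%. The 2 comparisons share the WT libraries, so their values are not independent of each other. Two-sided exact permutation tests of the log values gave p from 0.2 to 0.7 in h2a.w-2 against WT and from 0.3 to 1.0 in h2a.w-1 against WT, where 3 libraries against 3 cannot go below 0.1.

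**Figure D2:**
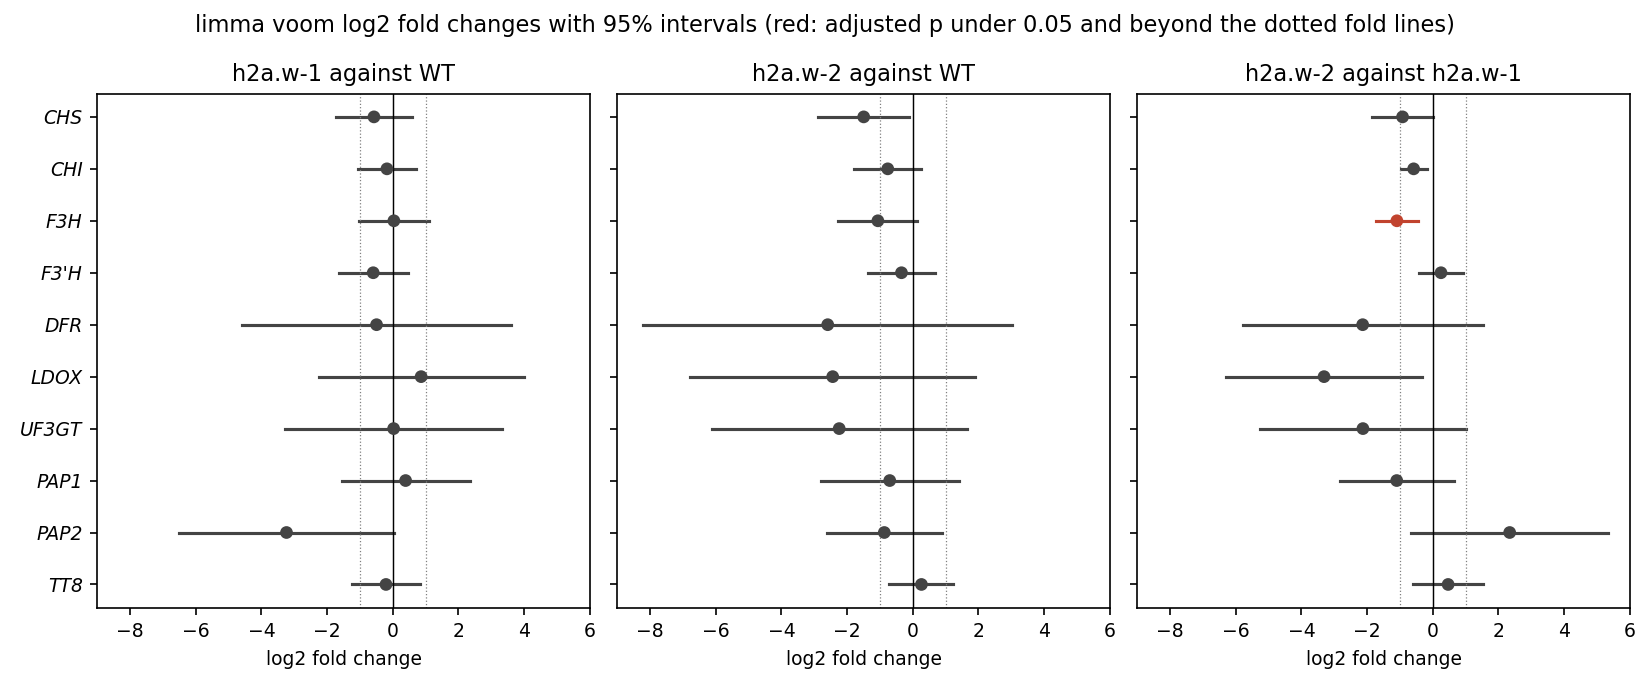
The log2 fold change (horizontal axis) of each gene in the 3 comparisons, with its 95% interval from limma voom, a solid line at 0 and dotted lines at the fold threshold. Intervals of the late enzymes and PAP2 span several log2 units, and F3H in h2a.w-2 against h2a.w-1 is the only gene drawn in red as called.

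The mutants were also compared with each other, which leaves the WT libraries out and asks whether their effects differ. F3H was lower in h2a.w-2 than in h2a.w-1 (log2 fold change -1.09 ± 0.28 SE, adjusted p = 0.0378, limma voom, n = 3 each), and 1 of 10 genes was thus called, beside 5.72% of all features (1122 of 19612, 3.84% higher and 1.88% lower). An unadjusted p under 0.05 was found for 3 of 10 genes, beside 30.4% of all features. The F3H call was lost without h2a.w-1 library B or C, or without h2a.w-2 library A, B or C, when its adjusted p was 0.0671 to 0.111, and it was lost when all 9 libraries were fitted together (adjusted p = 0.162). CHI (-0.58 ± 0.17, adjusted p = 0.0581) and LDOX (-3.31 ± 1.30, adjusted p = 0.129) also lay lower in every h2a.w-2 library than in any h2a.w-1 library. Groups did not overlap in this direction for 3 of 10 genes, beside 18.8% of all features, and the exact permutation p for each was 0.1, the smallest possible. LDOX had 3, 7 and 1 reads in h2a.w-2 and passed the filter only through h2a.w-1, so no support is drawn from its separation. Without h2a.w-1 library B, LDOX and UF3GT passed the thresholds and F3H did not (adjusted p = 0.0149 and 0.0420, limma voom), but both entered the test only through their level in h2a.w-1, and these calls support nothing here. DFR (-2.14 ± 1.59), PAP1 (-1.10 ± 0.75) and CHS (-0.92 ± 0.40) had negative values that did not pass, and PAP2 had a positive one (2.34 ± 1.30, adjusted p = 0.271). The median over the 10 genes was -1.01, beside 0.00 over all features.

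The spread between libraries of a genotype was the most marked property of these genes. The pooled SD within genotypes of log2(normalized count + 1) was 2.69 for DFR, 2.06 for UF3GT, 2.05 for PAP2, 2.02 for LDOX and 1.30 for PAP1. These 5 genes exceeded the 99th percentile, 1.11, of the 19647 features whose normalized count averaged 10 or more. CHS (0.87) exceeded the 95th percentile of 0.68, and F3H (0.67), F3'H (0.62), TT8 (0.62) and CHI (0.52) lay between that and the median of 0.20. The percentiles were not matched for level, and UF3GT and PAP1 averaged only 17.4 and 17.9 normalized counts over the 9 libraries. The part of counting error in this spread was not tested. 

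**Figure D3:**
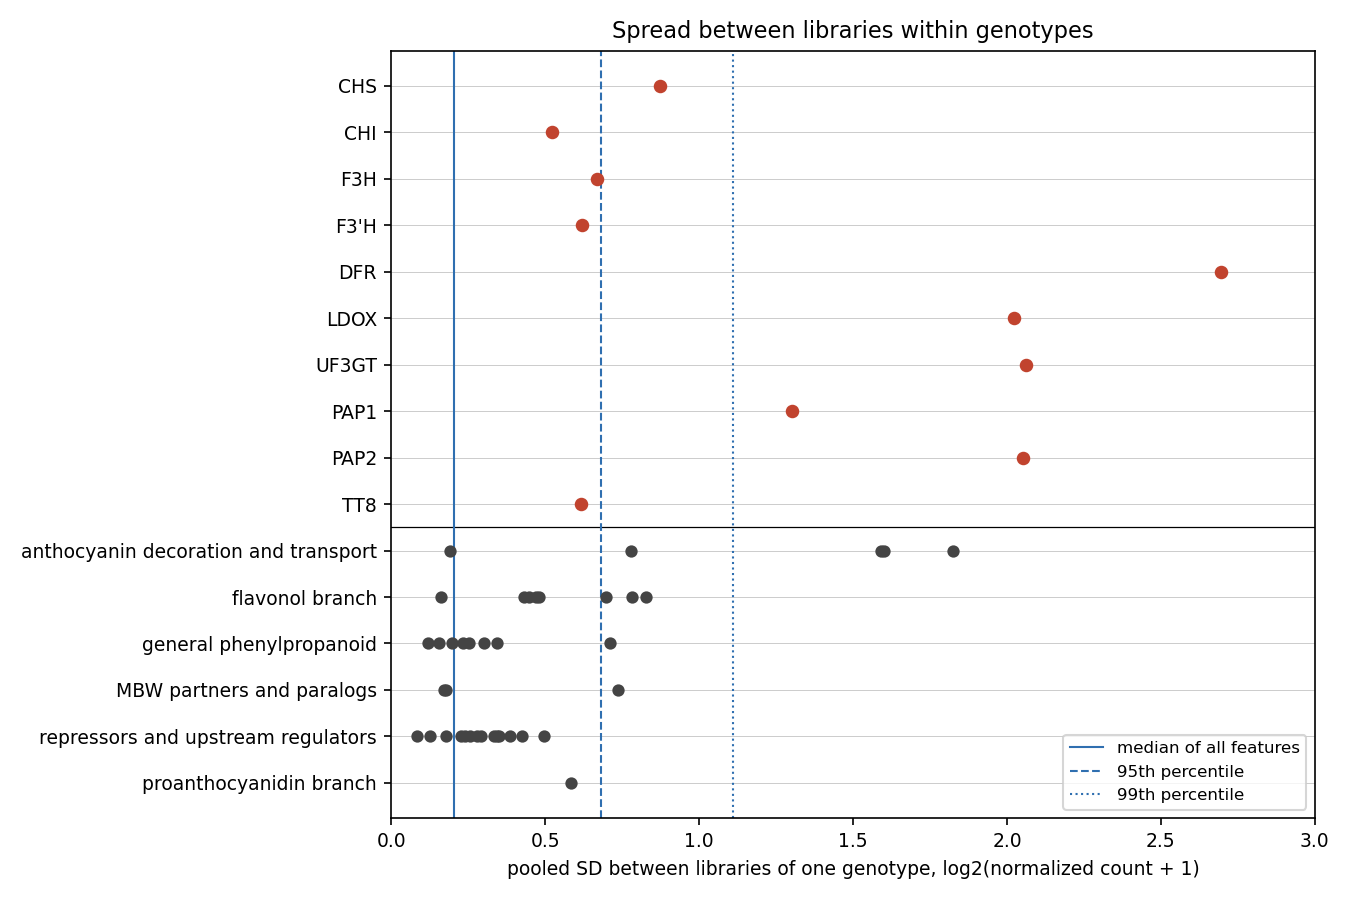
The pooled SD between libraries of a genotype (horizontal axis, log2 of normalized count plus 1) for the 10 genes, a row each in red, and for related genes with a mean of 10 or more by list in grey, with the median and the upper percentiles of all features as vertical lines. DFR lies at 2.69, and 3 genes of anthocyanin decoration and transport also lie beyond the 99th percentile of 1.11.

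The late enzymes shared their order of libraries in h2a.w-1 and in WT. In h2a.w-1 the order was C, A, B for DFR, LDOX, UF3GT, PAP1 and TT8, and in WT it was A, B, C for the same 5 genes. Some neighbouring ranks rest on differences too small to rank with certainty. In h2a.w-1, UF3GT had normalized counts of 27.4 in C and 26.6 in A, and TT8 had 13 reads in A and 9 in B. In h2a.w-2, library C was the lowest for all 5 genes, but DFR, LDOX and TT8 ran B, A, C and UF3GT and PAP1 ran A, B, C. There UF3GT had only 5 reads in A and 4 in B. The C libraries, the shallowest, were thus at the bottom in h2a.w-2 and WT and at the top in h2a.w-1, and the part of depth was not tested. The pair of orders in h2a.w-1 and WT, singled out after the values were seen, was found for 858 of 19647 features (4.37%). In WT the summed root markers ran the other way, with 824, 1082 and 1803 in libraries A, B and C, which was not so in h2a.w-1 (507, 899 and 743) or h2a.w-2 (978, 596 and 683). The part of tissue composition in the WT order was not tested, and in bulk seedlings fewer cells of a type and less RNA per cell cannot be told apart.

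Over the 9 libraries, log2(normalized count + 1) of PAP1 and DFR had a Pearson r of 0.93 (two-sided exact permutation p = 0.000466, adjusted over 3 regulators 0.00140) and a Spearman rho of 0.88 (exact permutation p = 0.00308, adjusted 0.00923). Without the 2 libraries farthest from the PAP1 median, h2a.w-1 C and WT A, r was 0.86, and after removal of the genotype means it was 0.94. All permutations ran over the 9 libraries without regard to genotype, and no p was computed for values after that removal. How many other features reach such an r with DFR was not tested. TT8 and DFR had r = 0.61 (exact permutation p = 0.0821, adjusted 0.123) and rho = 0.68 (exact permutation p = 0.0503, adjusted 0.0666), with r = 0.69 without the 2 farthest libraries. After removal of the genotype means, r was 0.84 for TT8 and 0.60 for PAP2. PAP2 and DFR had r = 0.40 (exact permutation p = 0.279, adjusted 0.279) and rho = 0.65 (exact permutation p = 0.0666, adjusted 0.0666). Without the 2 farthest libraries, h2a.w-1 A and B, r for PAP2 was 0.95, so its low value rests on those libraries, where PAP2 had 1 and 6 reads. In h2a.w-1 library A, DFR had 71 reads beside 1 read of PAP2.

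**Figure D4:**
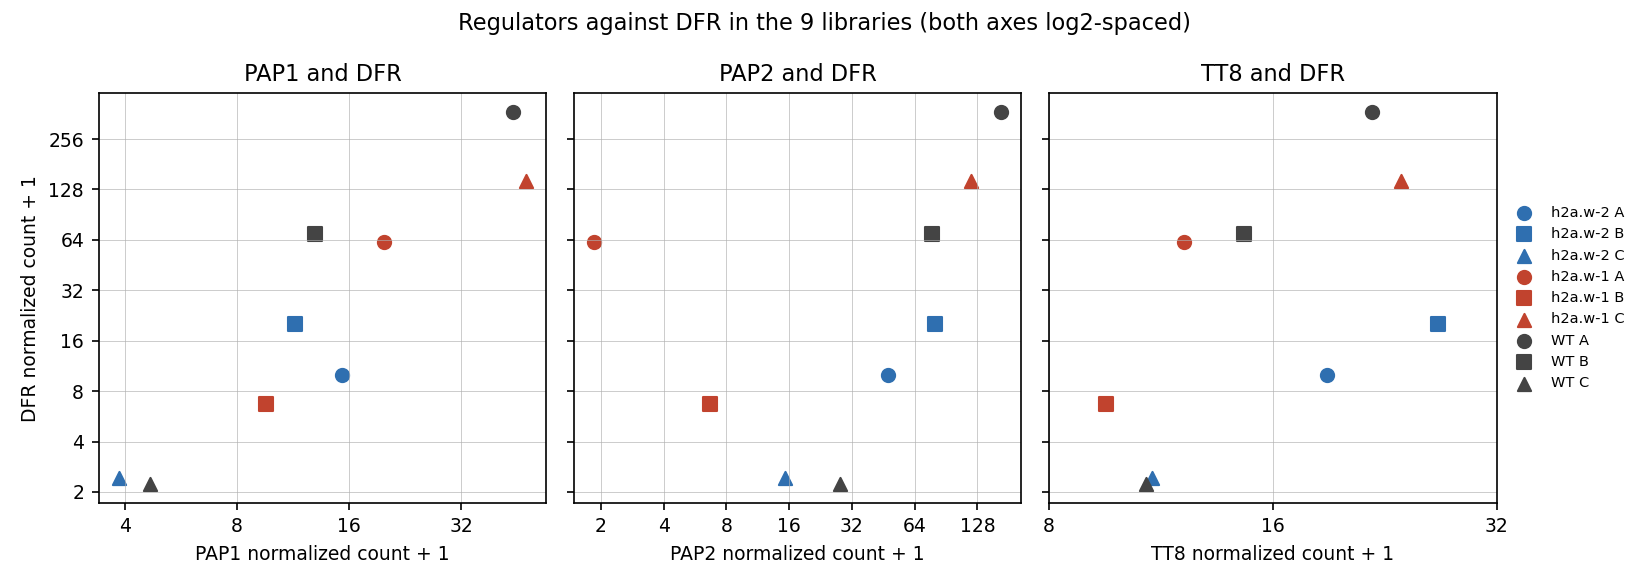
Normalized count plus 1 of DFR (vertical axis) against that of PAP1, PAP2 and TT8 (horizontal axes), all axes log2-spaced, with 1 point per library, coloured by genotype. DFR and PAP1 rise together over the 9 libraries (r = 0.93), whereas h2a.w-1 library A lies far from the others in the PAP2 plot.

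Of 7 further genes of anthocyanin decoration and transport, 4 shared the orders of the late enzymes in h2a.w-1 and WT, beside 4.37% of all features averaging 10 or more. GSTF12, the glutathione transferase needed to bring anthocyanins to the vacuole, had 15, 20 and 4 reads in h2a.w-2, 60, 19 and 139 reads in h2a.w-1, and 315, 56 and 10 reads in WT. UGT75C1, an anthocyanin 5-O-glucosyltransferase, had 12, 21 and 3 reads in h2a.w-2, 58, 14 and 81 reads in h2a.w-1, and 198, 34 and 6 reads in WT. Both showed the order A, B, C in WT and C, A, B in h2a.w-1, as did the acyltransferase genes 5MAT and 3AT1, which were named after their values were seen. BGLU10, a glucosyltransferase that uses acyl-glucose, was even across libraries, with a pooled SD of 0.19. Of the 7 genes of this list, 4 were tested in h2a.w-2 against WT, with a median log2 fold change of -1.21 and 0 called, beside 0.0408% of all features. In h2a.w-1 against WT, 6 were tested, with a median of 0.04 and 1 called (SCPL10), beside 4.86% of all features. SCPL10, an acyltransferase from a cluster of related genes, had 39, 48 and 7 reads in h2a.w-2, 136, 87 and 94 reads in h2a.w-1, and 88, 31 and 32 reads in WT. The authors discarded reads that matched several places equally well, and how many SCPL10 reads were lost this way was not tested. SCPL10 was higher in h2a.w-1 than in WT (log2 fold change 1.23 ± 0.33 SE, adjusted p = 0.0378, limma voom) and lower in h2a.w-2 than in h2a.w-1 (-1.83 ± 0.42, adjusted p = 0.0252). The first call was lost without WT library B or C or h2a.w-1 library A or C (adjusted p 0.0802 to 0.121) and with all 9 libraries in 1 fit (adjusted p = 0.0613), and the second without h2a.w-1 library A, B or C or h2a.w-2 library A (adjusted p 0.0525 to 0.0903).

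In the flavonol branch, 6 of the 8 genes tested had the WT order A, C, B of the early enzymes, and OMT1 and MYB12 (the second named after its values were seen) did not. FLS1, the flavonol synthase, had normalized counts of 169, 207 and 67.2 in h2a.w-2, 247, 300.4 and 255 in h2a.w-1, and 649, 159 and 427 in WT. UGT78D1, a flavonol rhamnosyltransferase, had normalized counts of 388, 396 and 223 in h2a.w-2, 695, 571 and 525 in h2a.w-1, and 743, 363 and 418 in WT. OMT1, a methyltransferase also used in lignin synthesis, had a pooled SD of 0.16. Of the 9 genes, 8 were tested and 0 were called in any comparison. Of all features, 0.0408% were called in h2a.w-2 against WT, 4.86% in h2a.w-1 against WT and 5.72% between the mutants. In h2a.w-2 against WT all 8 log2 fold changes were below 0, beside 49.5% of all features, with a median of -0.60. These 8 signs rest on the same WT libraries and are not independent, and library A was the highest WT library for the 6 genes with the order A, C, B. In h2a.w-1 against WT 6 of 8 were below 0 (51.1% of all features), with a median of -0.22. In h2a.w-2 against h2a.w-1 it was 6 of 8 (50.5% of all features), with a median of -0.67.

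In the general phenylpropanoid pathway, PAL1, PAL2 and C4H, which lead from phenylalanine to p-coumarate, had pooled SDs of 0.25, 0.23 and 0.20. 4CL3, the 4-coumarate-CoA ligase associated with flavonoids, differed from its relatives, with 32, 26 and 6 reads in h2a.w-2, 81, 69 and 75 reads in h2a.w-1, and 142, 45 and 42 reads in WT. It was lower in h2a.w-2 than in h2a.w-1 (log2 fold change -1.83 ± 0.36 SE, adjusted p = 0.0160, limma voom), a call that was lost without h2a.w-1 library A (adjusted p = 0.0547), and against WT it had -1.63 ± 0.61 in h2a.w-2 (adjusted p = 0.411). 4CL3 was the only gene of the 8 called in any comparison, and it was called only between the mutants (5.72% of all features). Against WT, 0 of 8 were called in h2a.w-2 (0.0408% of all features) and 0 of 8 in h2a.w-1 (4.86%). Below 0 were 7 of 8 log2 fold changes in h2a.w-2 against WT (49.5% of all features) and 7 of 8 in h2a.w-1 against WT (51.1%).

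Among the regulators and repressors, MYBL2, a small MYB protein that blocks the activating complex, had 951, 1032 and 1187 reads in h2a.w-2, 478, 484 and 274 reads in h2a.w-1, and 440, 761 and 459 reads in WT. MYBL2 was higher in h2a.w-2 than in h2a.w-1 (log2 fold change 1.53 ± 0.26 SE, adjusted p = 0.00939, limma voom), and every h2a.w-2 library lay above every WT library as well, although that difference did not pass (1.15 ± 0.29, adjusted p = 0.320). LBD38, a nitrate-induced repressor of PAP1 and PAP2, had 1008, 953 and 907 reads in h2a.w-2, 591, 643 and 317 reads in h2a.w-1, and 1228, 1003 and 747 reads in WT. It was higher in h2a.w-2 than in h2a.w-1 (1.08 ± 0.22, adjusted p = 0.0165), a call that was lost without h2a.w-1 library A (adjusted p = 0.0623) or, because the value fell below the fold threshold, without h2a.w-1 library C (0.88) or h2a.w-2 library C (0.90). SPL9, a squamosa-promoter factor that hinders the activating complex, had 51, 52 and 46 reads in h2a.w-2, 103, 83 and 76 reads in h2a.w-1, and 46, 44 and 27 reads in WT. SPL9 was higher in h2a.w-1 than in WT (1.20 ± 0.16, adjusted p = 0.00297). Of the 15 genes of this list, 14 were tested, with 0 called in h2a.w-2 against WT (0.0408% of all features), 1 in h2a.w-1 against WT (4.86%) and 2 in h2a.w-2 against h2a.w-1 (5.72%). With no fold threshold these counts were 0, 6 and 4, beside 9 of 19628, 3600 of 19681 and 2910 of 19612 features in all. The others of highest level, LBD37, SPA1 and PIF3, were not called in any comparison. TTG1, EGL3 and GL3, the WD40 protein and 2 bHLH proteins of the activating complex, were tested and not called.

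**Figure D5:**
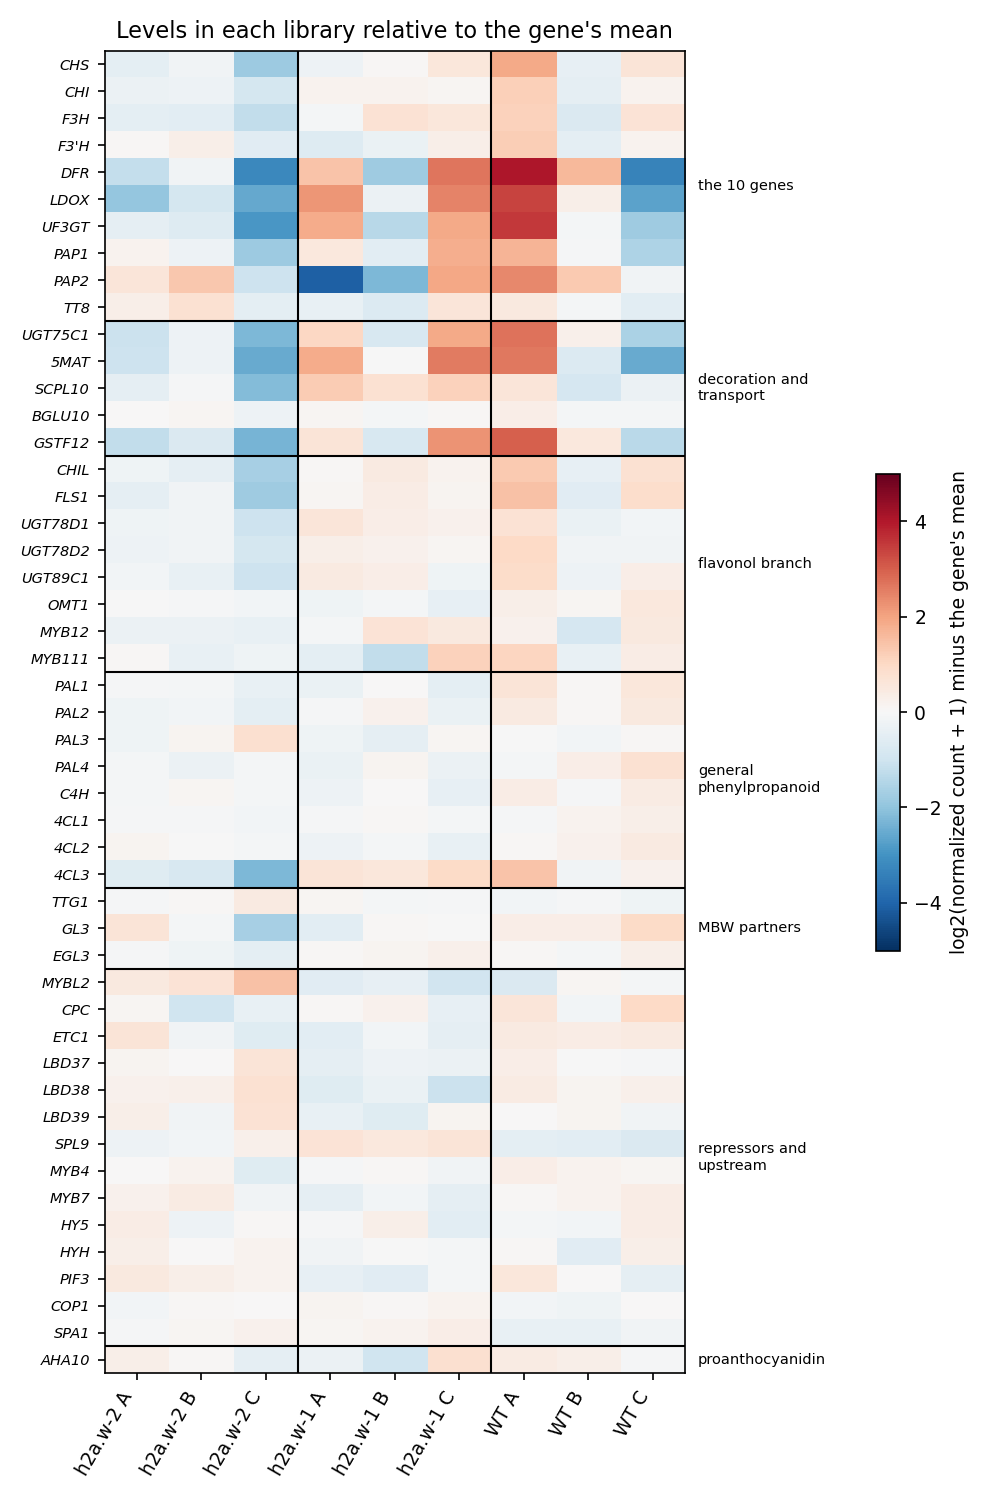
Each row is a gene whose normalized count averaged 10 or more, grouped by list, and each column a library. Colour gives log2(normalized count + 1) minus the gene's mean over the 9 libraries, red above and blue below. DFR, LDOX, UF3GT, UGT75C1, 5MAT and GSTF12 share strong red in WT library A and h2a.w-1 library C and blue in h2a.w-2 library C, while PAL1, C4H and TTG1 stay pale.

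Of the proanthocyanidin branch, which colours the seed coat, 6 of 7 genes fell short of the mean of 10 normalized counts in every comparison. BAN, the anthocyanidin reductase, had 0 to 2 reads in every library, and TT10, a seed-coat laccase, had 2 to 11. AHA10, a proton pump and the only gene of the list tested, had 25, 20 and 9 reads in h2a.w-2, 17, 9 and 28 reads in h2a.w-1, and 29, 26 and 14 reads in WT, and its log2 fold change was -0.21 in h2a.w-2 against WT and -0.46 in h2a.w-1 against WT (adjusted p = 0.762 and 0.493, limma voom).

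PAP2 lies beside its paralogs MYB113 and MYB114, and the neighbourhood of both MYB genes was examined because the h2a.w-1 line carries a rearranged chromosome 1. In published h2a.w-1 data, the study found TEs with raised copy number on both sides of PAP2 and inferred a duplicated region. The dose of this region in the libraries used here was not tested. MYB113 had 0 to 2 reads and MYB114 0 to 4 reads in every library, against 6 to 199 reads of PAP2 in 8 of the 9 libraries. In h2a.w-1 library A each of the 3 genes had 1 read. The 50 nearest tested genes of PAP2 had a median log2 fold change of -0.02 in h2a.w-1 against WT and -0.03 in h2a.w-2 against WT, and those of PAP1 had 0.02 and -0.01. 4CL3 and MYBL2, both called between the mutants, also lie on chromosome 1. The 50 nearest tested genes of 4CL3 had medians of 0.15 and -0.04 in the same comparisons, and those of MYBL2 had -0.07 and 0.03. CML23, the next annotated gene after PAP2, had 384, 756 and 148 reads in h2a.w-2, 188, 203 and 116 reads in h2a.w-1, and 423, 418 and 111 reads in WT. The next, CAM4, had log2 fold changes of -0.25 in h2a.w-2 and -0.14 in h2a.w-1 against WT. AT1G66360 and AT1G66420, also beside PAP2, had 0 to 2 reads in every library. Beside PAP1, AT1G56630 had log2 fold changes of -0.56 in h2a.w-2 and -0.74 in h2a.w-1 against WT, and AT1G56670 had 0.11 and 0.77. AT1G56660 had 0 to 6 reads, and AT1G56620, AT1G56640 and AT1G56675 were not analysed here.

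The genes outside these lists with the profile most like the mean standardized profile of the 7 enzymes over the 9 libraries were BOR5 (r = 0.97), SBE2.1 (r = 0.97), AT1G77670 (r = 0.96), AAE18 (r = 0.95) and APL3 (r = 0.93), among 18940 features ranked. BOR5, a boron transporter gene, had 41, 33 and 16 reads in h2a.w-2, 49, 38 and 60 reads in h2a.w-1, and 126, 40 and 30 reads in WT. APL3, a subunit of the starch-making enzyme ADP-glucose pyrophosphorylase, had 343, 357 and 82 reads in h2a.w-2, 475, 329 and 730 reads in h2a.w-1, and 968, 329 and 201 reads in WT. WT library A had the most reads of the 9 libraries for both. Among the regulators, PAP1 had r = 0.84 with the same profile, TT8 0.48 and PAP2 0.38.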

How the data were processed

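Total RNA was depleted of rRNA and made into directional libraries. Per the labels and the study's methods, the authors trimmed reads with Trim Galore 0.5.0, aligned them to TAIR10 with STAR 2.7.0c, counted them with HTSeq and compared genotypes with DESeq2. Before counting, they discarded reads that matched several places equally well and removed probable PCR duplicates. The strand option of the counting is not given in the sources used here. The deposited values used here are a signal, mean normalized counts of each genotype's 3 libraries. The deposited tables also hold the authors' overall means, log2 fold changes, their standard errors, test statistics and p-values, none of which were used. The other assays were not used.

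Whole reads per library were recovered from the means: the 3 commonest nonzero values of a column give what 1 read of each library adds to the mean, and all combinations of whole reads were searched for means up to 12000. The recovery and the test were checked on simulated data. Recovered reads were 5812579 to 9391308 per library. As the deposited values are means rather than counts, the study's count test was not run, and limma 3.58.1 voom in R 4.3.3 was fitted to the recovered reads, with the recovered size factors of each table where WT was involved and median ratios over 9 libraries where the mutants were compared. Features needed a mean normalized count of at least 10, and p-values were adjusted by Benjamini-Hochberg over all features. Correlations and permutation tests used log2(normalized count + 1). The pseudocount understates differences of low genes. A library with 0 reads allows up to 3. Sequences and positions come from RefSeq, TAIR10.1, where all 26870 gene identifiers matched. BLAST 2.17.0 searched for exact matches. All 10 genes were described. Of related lists, every called gene and up to 3 others of highest level were named, with 3 genes either side of PAP1 and PAP2 and the 5 most alike profiles. The genes and lists were chosen with earlier results of these data known. Alternatives changed the scaling, filter, model, pseudocount, libraries and thresholds.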

Additional observations from a re-analysis of the deposited data

Results flagged for a closer look

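The effects of the mutants differed, by the test of h2a.w-2 against h2a.w-1 in which the shared WT libraries cancel (limma voom, adjusted over all features), for 6 of the pathway, regulator and H2A.W genes described, where 5.72% of all features were called. Among the 10 pathway genes 1 was called, F3H, with a log2 fold change of -1.09 (101 ± 26.7 normalized counts in h2a.w-2 and 227 ± 63.4 in h2a.w-1, SD, n = 3 each). 4CL3 had -1.83 (20.7 ± 10.7 in h2a.w-2 and 73.5 ± 10.6 in h2a.w-1) and SCPL10 had -1.83 (30.2 ± 18.3 in h2a.w-2 and 102 ± 17.5 in h2a.w-1). MYBL2 had 1.53 (1177 ± 455 in h2a.w-2 and 394 ± 74.9 in h2a.w-1) and LBD38 had 1.08 (1036 ± 226 in h2a.w-2 and 493 ± 125 in h2a.w-1). 4CL3 and MYBL2 lie on chromosome 1, which is rearranged in h2a.w-1, and the part of gene dose was not tested. HTA6 itself, whose mutant allele differs between the lines, had 2.23, with 312, 274 and 136 reads in h2a.w-2 and 65, 54 and 42 reads in h2a.w-1. LHCB1.1, a leaf marker, was lower in h2a.w-2 than in h2a.w-1 as well (-1.39, adjusted p = 0.00336, limma voom), and the part of tissue composition in these differences was not tested. The calls of F3H, SCPL10, 4CL3 and LBD38 were lost on leaving out at least 1 library, and those of MYBL2 and HTA6 were not lost on leaving out any single library. With 3 libraries per genotype no outlier test was made.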

How the results depend on the processing

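No paired analysis was possible because the columns carry no replicate numbers, and libraries were not assigned to numbers by their depth. The counts of all features called moved in h2a.w-1 against WT to 3600 with no fold threshold. In h2a.w-2 against WT they moved to 28 at an adjusted p under 0.1, 38 with all 9 libraries in 1 fit and 33 with no minimum count. In h2a.w-2 against h2a.w-1 they moved to 2910 with no fold threshold. With 1 library left out they ranged from 641 to 1164, from 3 to 9 and from 562 to 1134 in h2a.w-1 against WT, h2a.w-2 against WT and h2a.w-2 against h2a.w-1. Of the 10 genes, 0 were called in either mutant against WT under every alternative run. In h2a.w-2 against h2a.w-1, 0 were called with all 9 libraries in 1 fit, 2 (F3H and LDOX) with limma-trend on log2(normalized count + 1) and 2 with a pseudocount of 5, and 0 to 2 with 1 library left out. The cause was not tested.

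None of the 10 log2 fold changes was called against WT, and 17 of 130 values in h2a.w-1 against WT and 4 of 140 in h2a.w-2 against WT changed sign under an alternative. DFR in h2a.w-1 was 0.025 with limma-trend on log2(normalized count + 1). PAP1 in h2a.w-2 was 0.064 with WT library A and h2a.w-2 library B both left out, a setting chosen after seeing the data, under which 0 of 10 genes and 6 features in all were called. With 1 library left out, values in h2a.w-1 against WT ranged from -1.12 to 0.029 for CHS, -0.61 to 0.34 for CHI, -0.56 to 0.50 for F3H, -2.17 to 1.32 for DFR, -0.42 to 2.57 for LDOX, -0.99 to 1.71 for UF3GT, -0.28 to 1.32 for PAP1, -0.55 to 0.087 for TT8 and -0.21 to 0.74 for 4CL3. In h2a.w-2 against WT they ranged from -0.79 to 0.17 for F3'H, -1.37 to 0.21 for PAP1, -0.032 to 0.55 for TT8 and -0.035 to 0.24 for LBD38. In h2a.w-2 against h2a.w-1 none of the 10 genes changed sign. The correlation of PAP1 with DFR was 0.90 to 0.96 with any library left out, and that of PAP2 with DFR 0.22 to 0.82, alternatives added after seeing the data. The late enzymes rest on 0 to 3 reads in some libraries, which limits every fold change that uses them.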
